A study of Mus musculus with 42 samples.

Results

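The genes described here were 45 genes of lysosomal and glycan degradation in mouse liver, chosen by name from 19758 gene names listed in 6 tables of normalized counts. They were 12 genes grouped here as glycosidases (Hexa, Man2b1, Man2b2, Manba, Neu1, Glb1, Fuca1, Fuca2, Aga, Engase, Gla and Gaa), of which Aga encodes an amidase and Engase a cytosolic enzyme. There were 8 genes of glycosaminoglycan degradation (Gusb, Ids, Idua, Naglu, Sgsh, Hgsnat, Galns and Arsb). Lipid degradation and export had 9 genes (Arsa, Asah1, Smpd1, Lipa, Gm2a, Psap, Npc1, Npc2 and Ppt1). The rest were 6 proteases (Ctsa, Ctsb, Ctsd, Ctsl, Ctsz and Tpp1), 4 membrane proteins (Lamp1, Lamp2, Cd63 and Gpnmb), 2 genes of the mannose 6-phosphate tag (Gnptab and Nagpa) and 4 genes of TFEB control (Tfeb, Flcn, Fnip1 and Fnip2). All 45 were listed in 4 tables, and 43 in the tables of KO lean against WT lean and of WT obese+RvE1 against WT obese, where Cd63 and Gpnmb were not listed. Every listed member passed the filter of a mean of 5 normalized counts in every table, but Gpnmb in both diet tables and Cd63 in the KO diet table passed it only through the obese group.

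The livers came from 42 male mice on a C57BL/6J background, 7 in each of 6 groups, with 1 library per mouse. WT mice were littermates of mice in which ChemR23, a receptor for the lipid mediator resolvin E1 (RvE1), had been knocked out in the whole body with CRISPR/Cas9 (KO). From 6 weeks of age and for 15 weeks the mice ate a lard diet with 60% of its energy as fat (obese) or one with 10% (lean), and then received either 300 ng RvE1 or its ethanol and PBS vehicle into the peritoneum on 4 days. Livers were taken from fasted mice on day 5. Both genotypes had a lean, an obese and an obese+RvE1 group, and the lean and obese groups without RvE1 in their name were given vehicle. The study asked how diet, the receptor and RvE1 shift the liver transcriptome.

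Lysosomes are acidic compartments in which hydrolases take apart glycans, glycosaminoglycans, lipids and proteins brought in by endocytosis and autophagy. Newly made hydrolases receive a mannose 6-phosphate tag in the Golgi, which routes them to the lysosome, and inherited loss of a single hydrolase causes storage of its substrate. TFEB is a transcription factor that drives many lysosomal genes through E-box elements, and folliculin (Flcn) with its partners Fnip1 and Fnip2 acts on the Rag GTPases that allow mTORC1 to hold TFEB in the cytoplasm. In liver these genes are active in hepatocytes and also strongly in Kupffer cells, the resident macrophages.

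Values are normalized counts, that is, the reads of a gene scaled by 1 size factor per library, and are comparable only within a table of 14 libraries. Depth on listed genes ran from 15992556 to 43841273 reads per library, with a median of 24298307. Cmklr1, which encodes ChemR23, lay between 30.1 and 148 normalized counts in WT mice and between 5.08 and 24.9 in KO mice over all tables, without overlap in the tables that set the genotypes side by side. Of 11 Kupffer cell markers 10 were listed in every table and Adgre1 was not, and none of the 10 was at 0 in any mouse. The leading number in the mouse names is shared by several mice of a group, and its meaning is not given in the sources used here, so the mice may not be independent. Liver is a mixture of cells, and in bulk RNA fewer cells of a type and less RNA per cell cannot be told apart.

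On the scale of mean normalized count per kilobase of gene model, the members spanned a wide range in WT lean mice. Lamp1, a main protein of the lysosomal membrane, led at 4767, followed by Ctsd (an aspartic protease) at 3148, Psap (the precursor of the saposins, which help lipid hydrolases) at 2545, Ctsz at 2362, Lamp2 at 1822, Ctsb at 1590, Ctsl at 1468 and Lipa at 1064, and the median over the 45 was 205. At the low end were Engase at 19.1, Cd63 at 1.67 and Gpnmb at 0.465. Fnip1 stood at 335, Flcn at 206, Fnip2 at 96.8 and Tfeb at 34.2 on the same scale. Cd63 has a near-identical processed copy elsewhere in the genome, so reads could be split between them and its values are uncertain. The coefficient of variation over the 7 WT lean mice had a median of 15.1% over the members and ran from 5.26% for Ctsz to 50.8% for Gpnmb.

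Promoters, from 250 bases before to 50 after the start site (RefSeq, GRCm38.p6), were at hand for 39 of the 45 members. They are shown because TFEB acts through E-boxes, and both strands were searched. The 8-base E-box TCACGTGA was present in 3 of the 39 genes (7.69%) against 1.12% of 27025 genes with a promoter of this length, and the 6-base core CACGTG, which lies within it, in 12 of 39 (30.8%) against 8.09%. The 12 were Arsa, Ctsa, Ctsd, Ctsl, Fnip1, Gaa, Gla, Glb1, Lamp1, Naglu, Nagpa and Sgsh. Such a match is a description of the letters and not of binding. The windows below show the 3 genes with the longer element and 3 with the core, with E-boxes in capitals, read 5′ to 3′ on the strand of the gene.
Ctsa (chr2:164833738-164833787, + strand): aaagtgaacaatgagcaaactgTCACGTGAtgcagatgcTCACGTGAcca
Ctsd (chr7:142387899-142387948, - strand): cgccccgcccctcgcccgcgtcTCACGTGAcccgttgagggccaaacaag
Gla (chrX:134601173-134601255, - strand): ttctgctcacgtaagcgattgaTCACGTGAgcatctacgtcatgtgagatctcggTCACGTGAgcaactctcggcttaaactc
Lamp1 (chr8:13159078-13159173, + strand): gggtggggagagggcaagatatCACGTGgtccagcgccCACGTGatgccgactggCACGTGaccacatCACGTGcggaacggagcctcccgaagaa
Glb1 (chr9:114401008-114401057, + strand): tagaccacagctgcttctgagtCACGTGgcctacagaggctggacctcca
Gaa (chr11:119267801-119267850, + strand): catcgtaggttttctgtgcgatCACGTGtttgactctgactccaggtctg

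**Figure D1:**
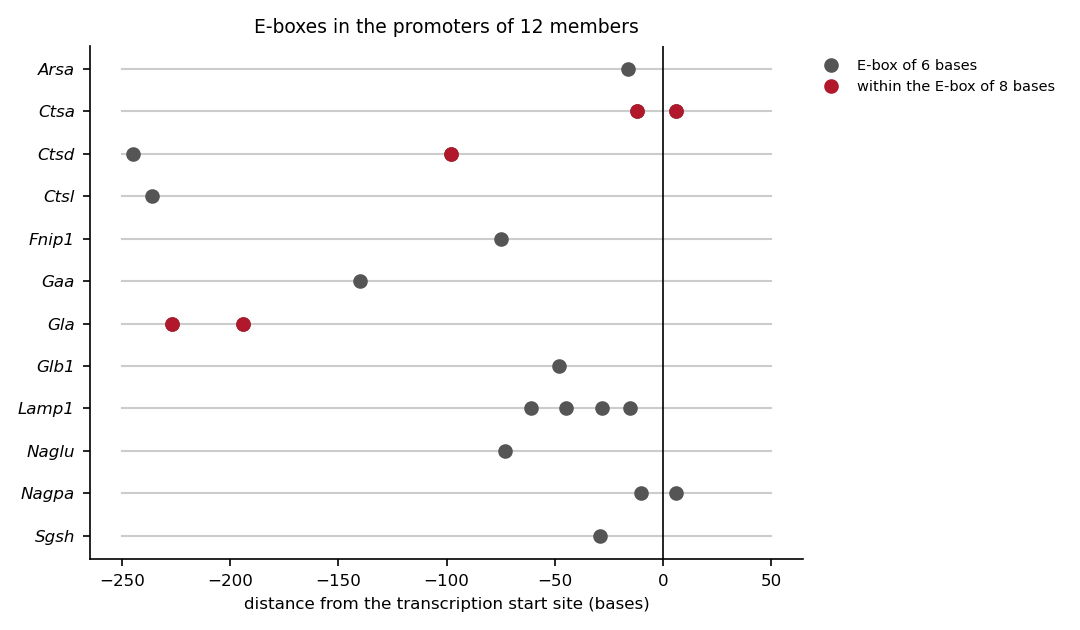
Distance of each 6-base E-box from the transcription start site, in bases, for the 12 members whose promoter holds it; the grey line is the window searched, and red points lie within the 8-base element. Lamp1 holds 4 E-boxes between 61 and 15 bases before the start site, and Ctsa, Ctsd and Gla hold the 8-base element.

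Of the 12 genes with a core E-box, Gaa was called in WT obese against WT lean mice and Ctsd in KO obese against KO lean mice, both lower, and the other 10 were called in neither. Over all genes tested 6.27% were called in the first comparison and 24.1% in the second. A role of E-boxes in these calls was not tested. The 4 members that were called in both of these comparisons, Fnip2, Lipa, Gm2a and Npc2, held no CACGTG in their windows. They are shown over the 100 bases before the start site, with the GC box GGGCGG, or CCGCCC on the other strand, in capitals; the Lipa window shown holds none. That element was found in 23 of the 39 members (59.0%) and in 38.2% of all genes with a promoter.
Fnip2 (chr3:79567680-79567779, - strand): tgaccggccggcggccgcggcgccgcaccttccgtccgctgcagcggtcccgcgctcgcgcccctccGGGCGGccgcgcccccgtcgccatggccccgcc
Lipa (chr19:34527475-34527574, - strand): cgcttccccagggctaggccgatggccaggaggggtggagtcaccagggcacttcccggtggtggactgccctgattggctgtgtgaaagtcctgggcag
Gm2a (chr11:55097885-55097984, + strand): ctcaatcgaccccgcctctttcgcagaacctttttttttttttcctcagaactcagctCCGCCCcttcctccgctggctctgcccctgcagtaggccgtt
Npc2 (chr12:84773113-84773212, - strand): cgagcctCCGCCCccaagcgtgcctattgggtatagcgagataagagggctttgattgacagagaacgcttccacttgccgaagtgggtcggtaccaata

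In WT obese compared to WT lean mice, Gm2a, Lipa and Npc2 of lysosomal lipid handling and the glycosidase Gaa were lower, while Engase, Hexa, Idua, Fnip2 and Tfeb were higher. Calls rest on limma with Benjamini-Hochberg (BH) adjustment over every gene tested, at an adjusted p under 0.1. Of the 45 members 5 were called higher and 4 lower, 11.1% and 8.89%, beside 3.65% and 2.61% of all 14012 genes tested. The members were chosen with earlier results of these data known, so no excess is read from these shares. The median log2 fold change was 0.005 over the members and 0.003 over all genes. By role, 0 of 9 lipid genes were higher and 3 lower, 2 of 12 glycosidases higher and 1 lower, 1 of 8 glycosaminoglycan genes higher, and 2 of 4 TFEB control genes higher, and none of the 6 proteases, 4 membrane proteins or 2 tag genes was called.

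Gm2a encodes the activator that lifts GM2 ganglioside out of the membrane for hydrolysis. It ran from 3511 to 4450.3 normalized counts in WT lean mice (median 3836, mean 3938 ± 353 SD, n = 7) and from 1997 to 3295 in WT obese mice (median 2673, mean 2638 ± 481). The log2 fold change was -0.59 (standard error 0.12, BH-adjusted p-value 0.0102), and every obese mouse lay below every lean mouse. How many of all genes separated in this way was not counted. Lipa, the lysosomal acid lipase that frees fatty acids and cholesterol from their esters, ran from 5693 to 9883 in lean mice (median 6732, mean 7211 ± 1383) and from 3873 to 6854 in obese mice (median 4463, mean 4857 ± 1074). Its log2 fold change was -0.58 (standard error 0.15, BH-adjusted p-value 0.0387), and 5 of the 7 obese mice lay below the lowest lean mouse. Npc2, which hands cholesterol to the membrane transporter Npc1, fell by 0.32 on the log2 scale (standard error 0.10, BH-adjusted p-value 0.0858), with 6 of 7 obese mice below the lean range of 1284 to 1721. Npc1 itself was not called.

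Engase, a cytosolic endoglycosidase that trims free N-glycans, ran from 64.3 to 152 in WT lean mice (median 85.3, mean 99.1 ± 30.6) and from 126 to 182 in WT obese mice (median 154, mean 158 ± 21.5), a log2 fold change of 0.71 (standard error 0.17, BH-adjusted p-value 0.0312). The ranges overlapped, with 4 of 7 obese mice above the highest lean mouse. Hexa, a lysosomal hexosaminidase gene whose product works with Gm2a on GM2 ganglioside, ran from 351 to 531 in lean mice (median 376, mean 409 ± 70.3) and from 423 to 742 in obese mice (median 549, mean 562 ± 108), with a log2 fold change of 0.45 (standard error 0.13, BH-adjusted p-value 0.077). Idua, which removes iduronic acid from heparan and dermatan sulfate, was higher by 0.47 (standard error 0.14, BH-adjusted p-value 0.0837). Gaa, the acid glucosidase of glycogen, fell by 0.42 on the log2 scale (standard error 0.13, BH-adjusted p-value 0.0989). Ppt1, which strips fatty acids from proteins, stood at 392 to 484 and 475 to 657 and was just outside the threshold at an adjusted p of 0.101.

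Among the genes of TFEB control, Fnip2 ran from 460.0 to 1390.3 in WT lean mice (median 647, mean 809.6 ± 334) and from 1044 to 2621 in WT obese mice (median 1309, mean 1487 ± 544). Its log2 fold change was 0.91 (standard error 0.24, BH-adjusted p-value 0.0503), and the ranges overlapped in part. Tfeb ran from 158 to 237 in lean mice (median 186, mean 194 ± 31.1) and from 219.6 to 276 in obese mice (median 248, mean 250.98 ± 18.2), a log2 fold change of 0.38 (standard error 0.11, BH-adjusted p-value 0.0725), with 6 of 7 obese mice above the lean range. Flcn had a log2 fold change of -0.18 (standard error 0.17, BH-adjusted p-value 0.615), and 4 obese mice lay below and 2 above the lean range of 720.3 to 1145. Fnip1 differed by -0.06 (standard error 0.18, BH-adjusted p-value 0.894), and the obese range of 1784 to 3321 lay within the lean range of 1485 to 3342. Gpnmb, a membrane glycoprotein of lipid-laden macrophages, was at 1.24 to 5.23 in lean mice and at 0 to 5.22 in 6 obese mice, with 41.9 in obese mouse 6R (log2 fold change 0.14, SE 0.67, adjusted p = 0.939).

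None of the 10 listed Kupffer cell markers was called in WT obese against WT lean mice, and their summed normalized counts overlapped, at 4351 to 9081 in lean and 5123 to 8147 in obese mice. In the list of 9 markers of recruited and lipid-associated macrophages, Cd9 was called lower and the other 8 were not called. The count of 9 members rested in part on single mice. It was 4 without WT lean mouse 8RL, WT obese mouse 27-2L or WT obese mouse 6RL, beside 794, 621 and 524 of all genes. It was 5 without WT lean mouse 19R, 21R or 8R or WT obese mouse 27-2R, beside 610, 640, 849 and 605. It was 2 with the leading number of the mouse name as a random block, namely Engase and Gm2a, beside 279 of all genes in place of 878. With libraries scaled to equal read totals it was 2 higher and 1 lower, and the split over all genes went from 512 higher and 366 lower to 349 and 161. Gm2a was called under all 31 alternatives run.

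**Figure D2:**
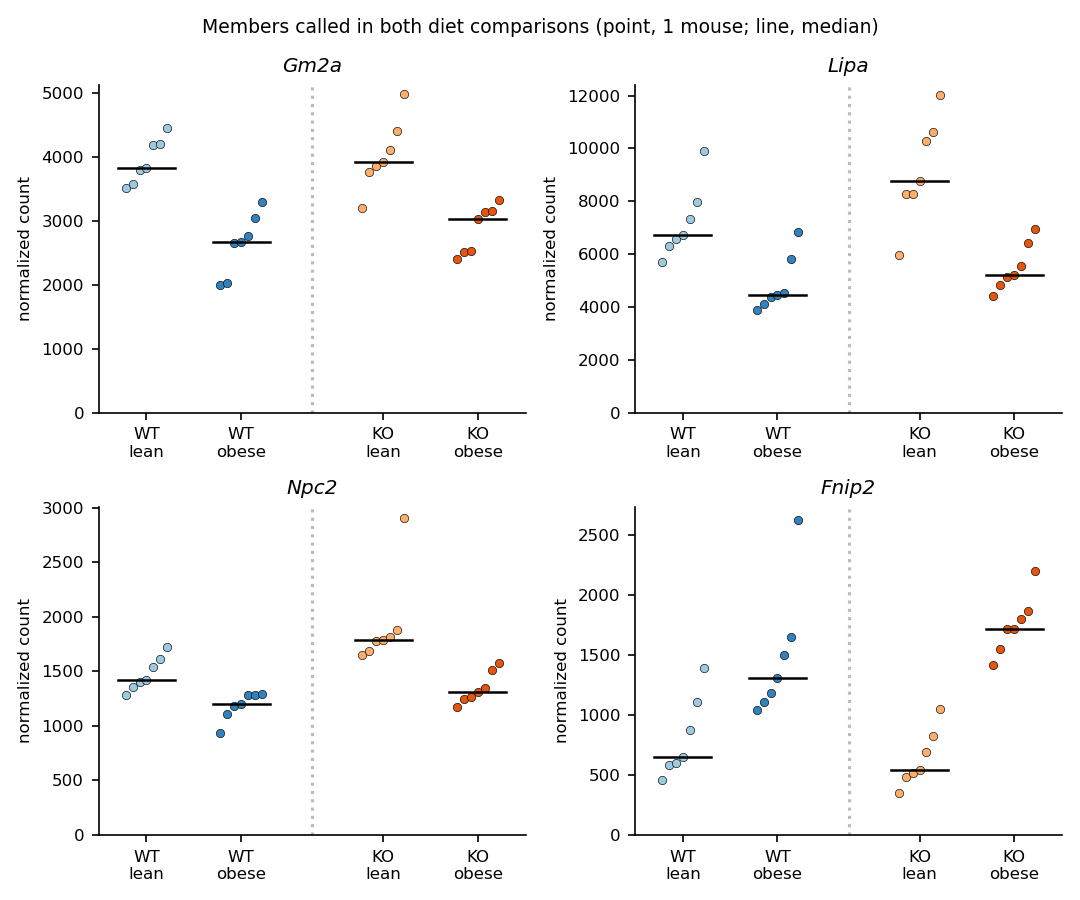
Normalized counts of Gm2a, Lipa, Npc2 and Fnip2 in 7 mice per group, from the WT table on the left and the KO table on the right of each panel; points are mice ordered by value and lines are medians. Gm2a did not overlap between diets in WT mice, and Npc2 and Fnip2 did not overlap in KO mice. How many of all genes did not overlap was not counted.

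In KO obese compared to KO lean mice, Fnip2 rose to 2.89 times its lean level and the same 3 lipid genes fell. Ids, Arsb, Man2b1, Ppt1, Tpp1, Gnptab and Cd63 were also higher, and Ctsd and Neu1 lower. Of the 45 members 8 were called higher and 5 lower, 17.8% and 11.1%, beside 12.0% and 12.1% of all 14213 genes tested. The share lower was near that of all genes. The share higher was above it but counts Cd63, which was tested only through the obese group, so no excess is read from it. The median log2 fold change was 0.013 over the members and -0.002 over all genes. By role, 1 of 9 lipid genes was higher and 3 lower, 1 of 12 glycosidases higher and 1 lower, 2 of 8 glycosaminoglycan genes higher, 1 of 6 proteases higher and 1 lower, and 1 gene each of the membrane proteins, the tag and TFEB control higher.

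Fnip2 ran from 347 to 1050.1 normalized counts in KO lean mice (median 541, mean 636 ± 238) and from 1419 to 2201 in KO obese mice (median 1717, mean 1753 ± 249), a log2 fold change of 1.53 (standard error 0.19, BH-adjusted p-value 0.00154). The groups did not overlap, and how many of all genes did not overlap was not counted. The other genes of TFEB control were not called. Tfeb, at 221 to 338 and 193 to 292, had a log2 fold change of -0.08 (standard error 0.12, BH-adjusted p-value 0.701). Flcn differed by -0.01 (standard error 0.14, BH-adjusted p-value 0.966), although its range in obese mice, 689.7 to 1402, was wider than the lean range of 864 to 1149. Fnip1 differed by 0.01 (standard error 0.14, BH-adjusted p-value 0.96), with 2234 to 3345 in lean and 2012 to 3781 in obese mice.

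Lipa ran from 5974 to 12010.5 in KO lean mice (median 8749, mean 9165 ± 1976) and from 4429.7 to 6934 in KO obese mice (median 5225, mean 5508 ± 883), a log2 fold change of -0.72 (standard error 0.15, BH-adjusted p-value 0.00764). Gm2a ran from 3205 to 4988 in lean mice (median 3919, mean 4039 ± 556) and from 2403 to 3327 in obese mice (median 3033, mean 2873 ± 376), a log2 fold change of -0.49 (standard error 0.11, BH-adjusted p-value 0.0132). In both genes the ranges touched, with 5 and 6 of 7 obese mice below the lowest lean mouse. Npc2 ran from 1646 to 2908 in lean mice (median 1786, mean 1927 ± 439.6) and from 1174 to 1579 in obese mice (median 1312, mean 1348 ± 148), a log2 fold change of -0.50 (standard error 0.12, BH-adjusted p-value 0.0174). No obese mouse reached the lean range of Npc2, a separation that was not counted over all genes, and lean mouse 20L stood far above the other 6. Ppt1 was higher by 0.35 (standard error 0.10, BH-adjusted p-value 0.0354).

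Ids, the sulfatase that takes the sulfate off iduronic acid, ran from 270.0 to 512 in KO lean mice (median 346, mean 362 ± 74.9) and from 430.4 to 641 in KO obese mice (median 527, mean 538 ± 67.3), a log2 fold change of 0.59 (standard error 0.13, BH-adjusted p-value 0.0106). Gnptab, the enzyme that begins the mannose 6-phosphate tag, ran from 193 to 259 in lean mice (median 233, mean 231 ± 20 SD) and from 243 to 394 in obese mice (median 359, mean 329 ± 62.1), a log2 fold change of 0.49 (standard error 0.12, BH-adjusted p-value 0.0188). In Ids 5 and in Gnptab 6 of the 7 obese mice lay above the highest lean mouse. Nagpa, which uncovers the tag after Gnptab, was not called. Man2b1, the lysosomal alpha-mannosidase, was higher by 0.41 (adjusted p = 0.0326), Arsb, a sulfatase of dermatan sulfate, by 0.30 (adjusted p = 0.0369) and Tpp1, a protease that cuts tripeptides, by 0.27 (adjusted p = 0.0736). Ctsd fell by 0.54 on the log2 scale (adjusted p = 0.0193) and Neu1, the lysosomal sialidase, by 0.39 (adjusted p = 0.0938).

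The tetraspanin Cd63 was called higher in KO obese mice (log2 fold change 1.38, SE 0.36, adjusted p = 0.0209), from 1.79 to 7.73 normalized counts in lean mice and from 7.06 to 29.0 in obese mice. Its mean was 4.50 in lean and 13.7 in obese mice, so it was tested only because it was high in obese mice, and its call supports nothing about the members; without it 7 members were called higher. Gpnmb was at 1.19 to 7.42 in KO lean mice, while the KO obese mice gave 1.32, 1.76, 2.94, 13.3, 16.6, 66.1 and 214 (log2 fold change 1.49, SE 0.85, adjusted p = 0.237). The 3 highest came from the 3 KO obese mice whose names begin with the number 10, and without them the log2 fold change was -0.17. The highest of them, 10-2L, also had the highest summed count of recruited and lipid-associated macrophage markers among KO obese mice, at 5194 against 1968 in the lowest, and 10RL the next, at 4025, whereas 10R was at 2467, the median of the group. Gpnmb too was tested only through the obese group, with a mean of 4.45 in lean and 45.2 in obese mice, and although edgeR (adjusted p = 0.0269) and DESeq2 (adjusted p = 0.00736) on the recovered reads put it past the threshold, it is given as a description.

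Kupffer cell markers moved with this comparison. Of the 10 listed, 9 were called lower in KO obese mice (Clec4f, Vsig4, Cd5l, Timd4, Csf1r, C1qa, C1qb, C1qc and Folr2) and Marco was not, and their summed count was 11381 to 23945 in KO lean and 6338 to 8816 in KO obese mice, without overlap. Cd9 and Lyz2 of the 9 recruited macrophage markers, 3 of 6 sinusoidal endothelial markers and 3 of the 5 listed lymphocyte markers were also called lower, and no hepatocyte or stellate cell marker was called. The part of these cells in the members' values was not tested.

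With libraries scaled to equal read totals the median of all genes moved to 0.14 in the KO diet comparison, the split over all genes went from 1704 higher and 1718 lower to 2555 and 628, and 9 members were higher and 4 lower. The members' count was 7 with the leading number of the mouse name as a random block, beside 1057 of all genes in place of 3422. The 7 were Cd63, Fnip2, Gm2a, Gnptab, Ids, Lipa and Npc2. Fnip2, Lipa and Ids were called under all 31 alternatives run.

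**Figure D3:**
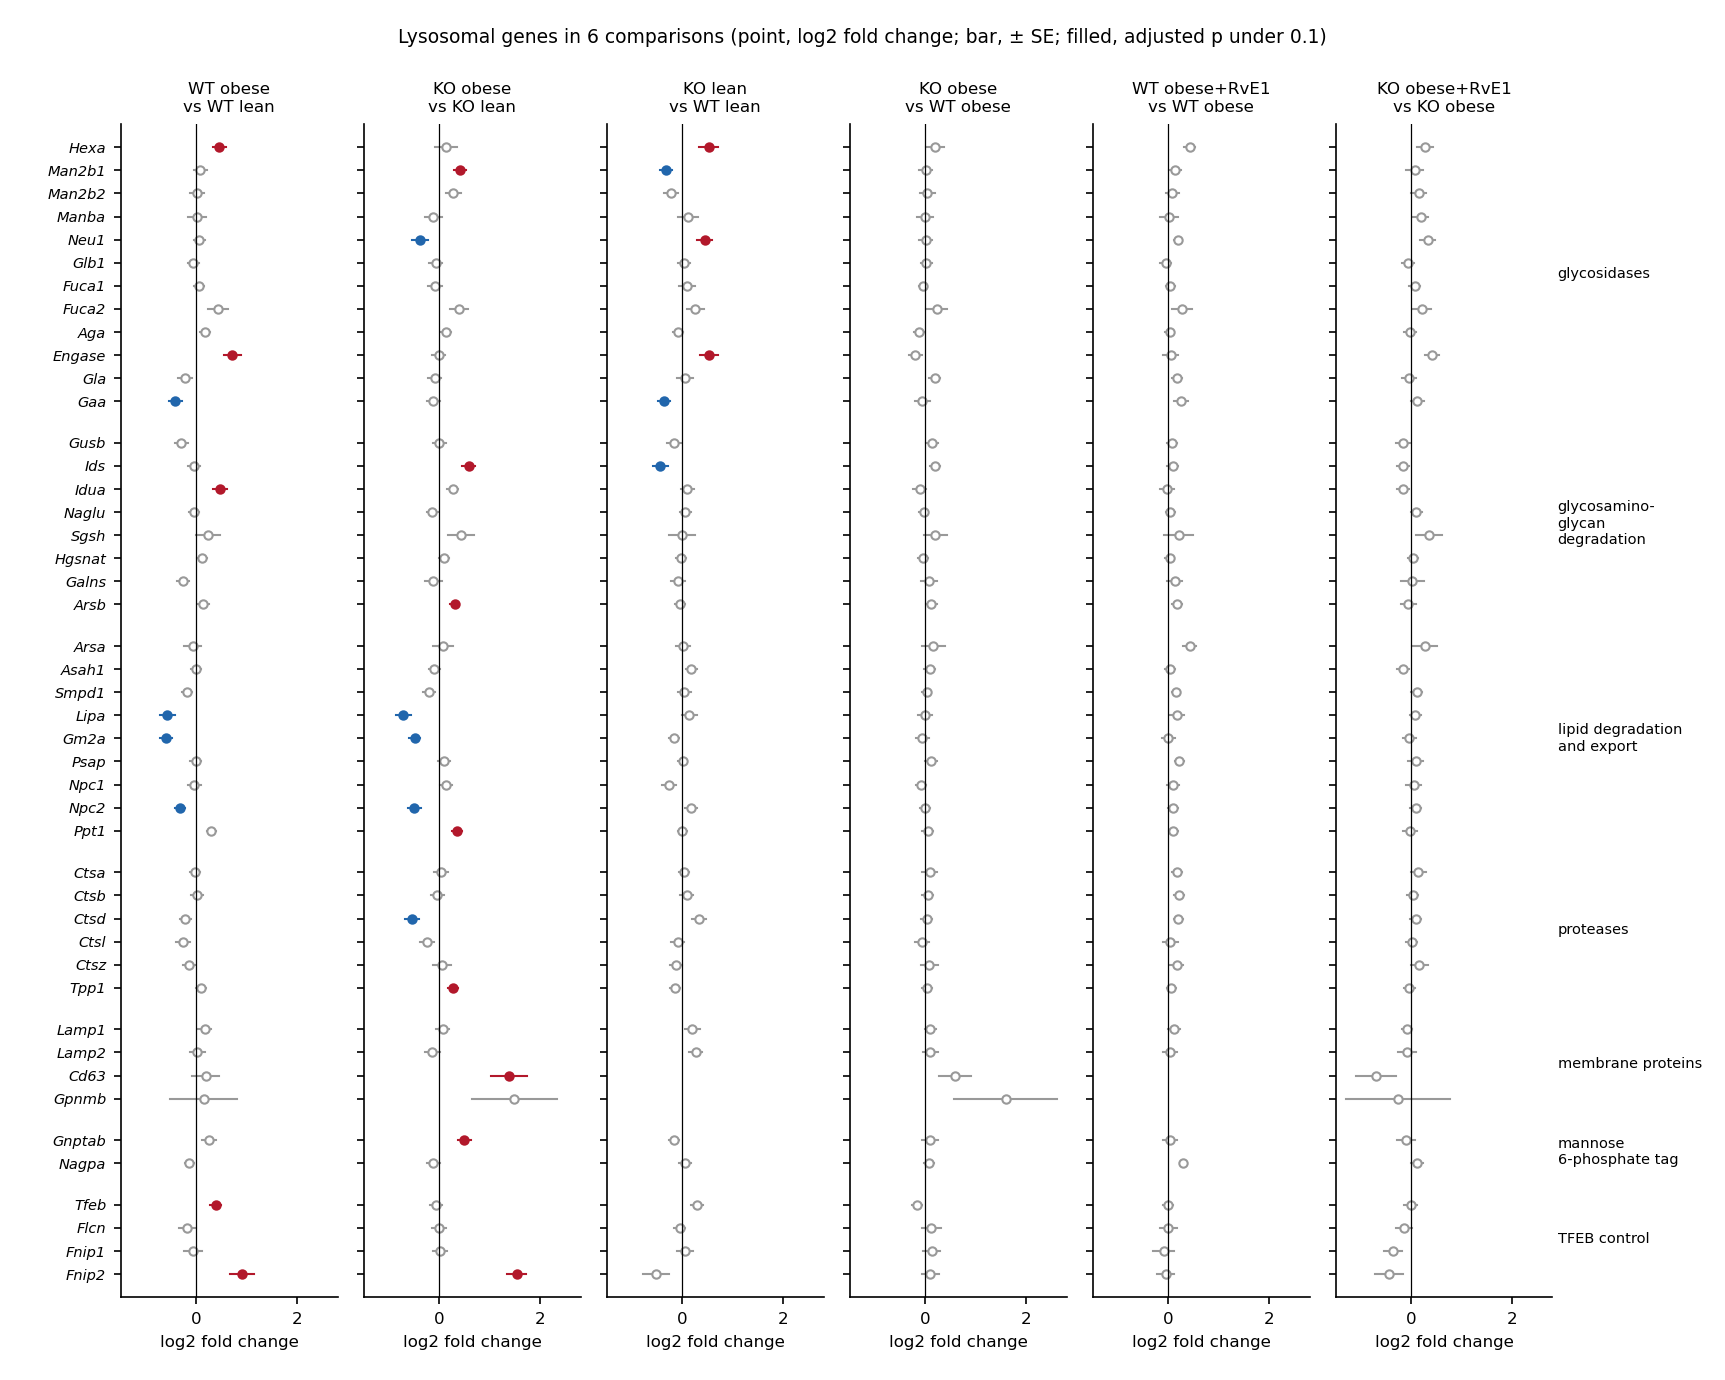
Log2 fold change (point) and SE (bar) of the 45 members, grouped by role, in each of the 6 comparisons; filled red points were called higher and filled blue points lower at an adjusted p under 0.1, and Cd63 and Gpnmb are missing where they were not listed. Calls are found in the first 3 comparisons, with 9, 13 and 6 members, and in none of the last 3.

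The WT and KO diet comparisons share no mice. Fnip2, Lipa, Gm2a and Npc2 were called in the same direction in both, 4 of the 45 members tested. With the leading number as a random block only Gm2a of these was called in both. Over all genes the block left 279 calls in WT and 1057 in KO mice. Npc2 lost its call in WT mice under 18 of 31 alternatives. The 4 genes of the main fit were among the 9 members called in WT mice and the 13 called in KO mice. Over all 13945 genes tested in both, 434 (3.11%) were called in the same direction in both and 2 in opposite directions. The 3.11% is a share of genes tested and not of genes called. The 434 genes were among 878 called in the WT and 3422 called in the KO diet comparison. The members were chosen with earlier results of these data known, so no excess of shared calls is read. The log2 fold change had the same sign in 30 of the 45 members (66.7%) and in 58.5% of all genes. The difference between the diet effects, KO minus WT, was fitted over the 28 mice. No member passed an adjusted p under 0.1 in either direction, beside 0% of 14114 genes higher and 0.00709% lower, a single gene. At an unadjusted p under 0.05 there were 5 members (11.1%) and 2565 of all genes (18.2%), so the members' share was below that of all genes. These 5 were Ids (difference 0.63, SE 0.18, adjusted p = 0.141), Engase (-0.73, SE 0.22, adjusted p = 0.142), Tfeb (-0.46, SE 0.15, adjusted p = 0.148), Cd63 (1.199, SE 0.43, adjusted p = 0.163) and Neu1 (-0.44, SE 0.19, adjusted p = 0.220). DESeq2 on the recovered reads called 3 members in this interaction (Engase, Ids and Tfeb) beside 925 of all 14114 genes. The edgeR fit called 0 members beside 39 genes. With library quality weights 7 members were called beside 2537 genes. Without KO lean mouse 20R there were 5 members beside 1834 genes, and without WT obese mouse 22L 2 members beside 953. Each of these member counts was near or below the share of all genes. Tfeb and Engase were thus called with diet in WT and not in KO mice, and limma did not show that the diet effects differed.

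In KO lean compared to WT lean mice Engase, Hexa and Neu1 were higher and Gaa, Man2b1 and Ids lower. Of the 43 members 3 were called higher and 3 lower, 6.98% in each direction, beside 8.00% and 8.30% of all 13031 genes tested, so the members' shares were near the background. The median log2 fold change was 0.029 over the members and -0.0004 over all genes. By role, 3 of 12 glycosidases were higher and 2 lower, and 1 of 8 glycosaminoglycan genes was lower, with no call among the lipid genes, proteases, Lamp1 and Lamp2, the tag or TFEB control.

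Neu1 ran from 1003 to 1572 normalized counts in WT lean mice (median 1189, mean 1213 ± 200.2) and from 1207 to 2399.5 in KO lean mice (median 1557, mean 1668 ± 394), a log2 fold change of 0.44 (standard error 0.15, BH-adjusted p-value 0.0685). Engase ran from 66.8 to 157 in WT lean mice (median 88.7, mean 103 ± 31.6) and from 119 to 170.5 in KO lean mice (median 146, mean 145 ± 21.7), a log2 fold change of 0.53 (standard error 0.17, BH-adjusted p-value 0.0683). Hexa ran from 363 to 551 in WT lean mice (median 392, mean 425 ± 72.8) and from 395 to 1163 in KO lean mice (median 605, mean 637 ± 252), a log2 fold change of 0.52 (standard error 0.19, BH-adjusted p-value 0.0945). All 3 overlapped between genotypes, with 3, 3 and 5 of the 7 KO mice above the highest WT mouse.

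Ids ran from 328 to 565 in WT lean mice (median 428, mean 443 ± 79.0) and from 245 to 466 in KO lean mice (median 314, mean 329 ± 68.6), a log2 fold change of -0.43 (standard error 0.14, BH-adjusted p-value 0.0683). Gaa ran from 1439 to 1996 in WT lean mice (median 1608, mean 1673 ± 178) and from 1004 to 1720.1 in KO lean mice (median 1369, mean 1319.5 ± 257), a log2 fold change of -0.36 (standard error 0.12, BH-adjusted p-value 0.0781). Man2b1 ran from 743 to 1138 in WT lean mice (median 849.7, mean 879 ± 130.0) and from 601 to 951 in KO lean mice (median 692, mean 702 ± 119), a log2 fold change of -0.33 (standard error 0.12, BH-adjusted p-value 0.0906). These too overlapped, with 4, 5 and 6 of the 7 KO mice below the lowest WT mouse, and 20R was the KO lean mouse that stood above the other 6 in Man2b1. The KO lean mice enter both this and the KO diet comparison, and Ids, Man2b1 and Neu1 had log2 fold changes of 0.59, 0.41 and -0.39 in the latter. The WT lean mice likewise enter both this and the WT diet comparison, in which Engase, Hexa and Gaa had log2 fold changes of 0.71, 0.45 and -0.42. The values of the shared mice bear on both comparisons in each case.

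Among the genes of TFEB control, Tfeb differed by 0.29 (standard error 0.12, BH-adjusted p-value 0.14) between 165 to 246 in WT lean and 200.7 to 307 in KO lean mice. Fnip2 differed by -0.53 (standard error 0.26, BH-adjusted p-value 0.203) between 478 to 1442 and 315 to 957. Flcn (-0.06, SE 0.11, adjusted p = 0.78) and Fnip1 (0.05, SE 0.16, adjusted p = 0.878) overlapped over nearly their whole ranges. Of the 10 listed Kupffer cell markers, 9 were called higher in KO lean mice, with a summed count of 4535 to 9445 in WT lean and 10327 to 21712 in KO lean mice and no overlap. Ccr2 and Lyz2 of the 7 listed recruited macrophage markers were also higher, as were Fcgr2b of the sinusoidal endothelial and Ms4a1 of the lymphocyte markers, and Reln of the stellate cell markers was lower. The part of these cells in the members' values was not tested.

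The 6 calls between lean genotypes were weakly held. There were 0 with the leading number as a random block, beside 3 of all genes in place of 2123. There were 0 without WT lean mouse 21L or 26R, beside 620 and 572 of all genes. Without KO lean mouse 14RL, 20-2L, 20L or 9L there were 0, beside 997, 1135, 881 and 602. Without WT lean mouse 8R or KO lean mouse 9RL there were 2, beside 1643 and 1625. With libraries scaled to equal read totals the median of all genes was -0.12, the split over all genes went from 1042 higher and 1081 lower to 392 and 1753, and 0 members were higher and 3 lower.

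**Figure D4:**
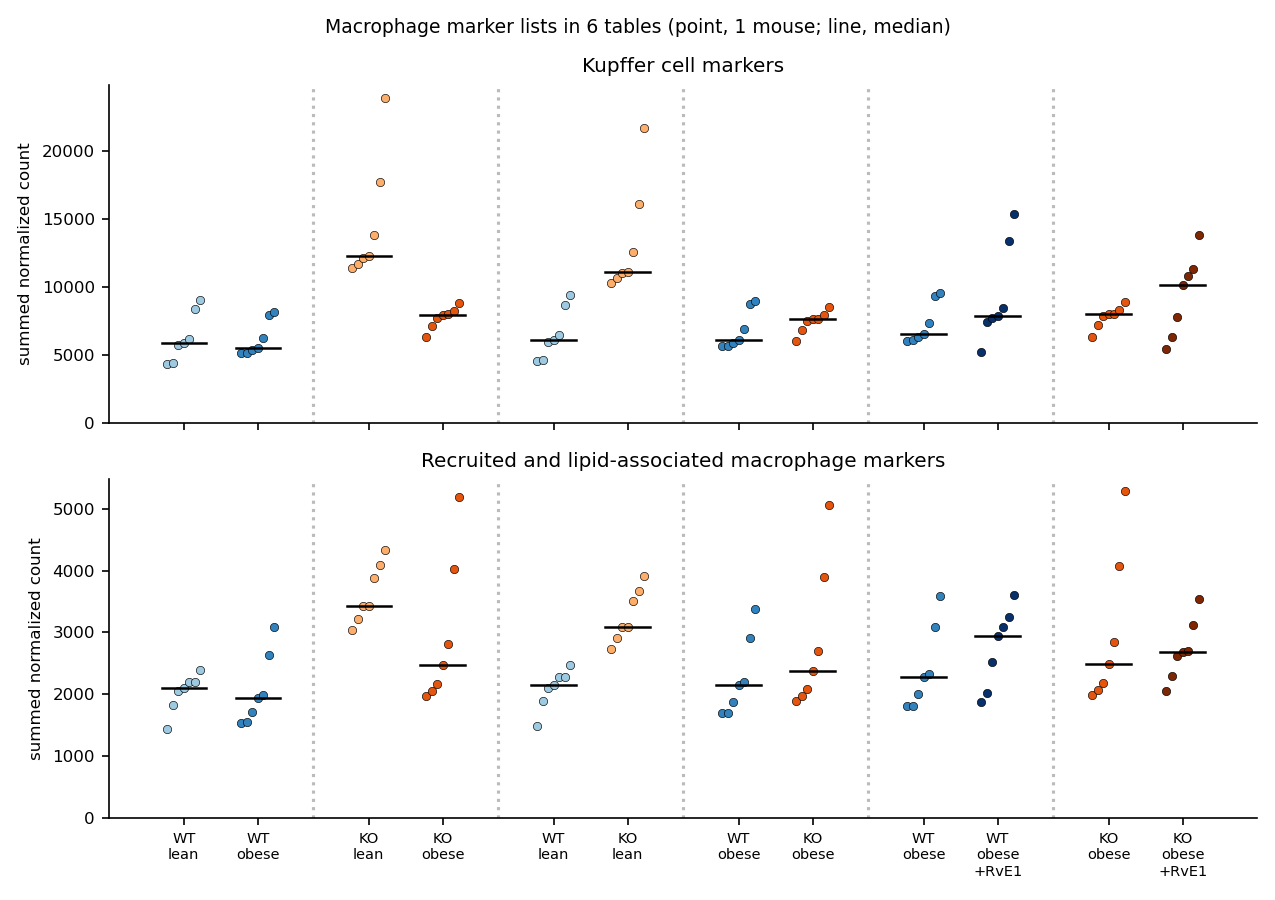
Summed normalized counts of the listed Kupffer cell markers (top) and of the recruited and lipid-associated macrophage markers (bottom) in each mouse, for the 6 tables in pairs; points are mice ordered by value and lines are medians. The Kupffer cell sum of KO lean mice lay above that of KO obese and of WT lean mice without overlap, while the WT lean and WT obese mice overlapped.

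In KO obese compared to WT obese mice no member was called, beside 0.00706% of 14162 genes higher and 0.00706% lower, a single gene each. No member reached an unadjusted p under 0.05 with limma, whereas 319 of all genes (2.25%) did, and edgeR and DESeq2 also called 0. The median log2 fold change was 0.05 over the 45 members and -0.002 over all genes. Lipa stood at 0.00 (95% interval -0.29 to 0.29) and Gm2a at -0.06 (-0.32 to 0.20). Tfeb differed by -0.17 (standard error 0.10, BH-adjusted p-value 1.00), with 241 to 305 in WT and 187 to 283 in KO mice. Flcn differed by 0.12 (SE 0.19), Fnip1 by 0.13 (SE 0.16) and Fnip2 by 0.10 (SE 0.17), each with an adjusted p of 1.00 and with ranges that overlapped nearly in full, such as 1155 to 2875 and 1368 to 2118 for Fnip2. Gpnmb differed by 1.59 (standard error 1.03, BH-adjusted p-value 1.00), with 0 to 45.9 in WT and 1.26 to 209 in KO mice, and by -0.06 without the KO mice of number 10.

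RvE1 was compared with vehicle in obese mice of each genotype. In WT mice no member was called, beside 0% of 13085 genes higher and 0% lower. At an unadjusted p under 0.05 there were 6 of 43 members (14.0%) and 795 of all genes (6.08%). With the leading number as a random block there were 3 members and 147 of all genes, and with equal read totals 2 and 405. The log2 fold change was above 0 in 38 of the 43 members, with a median of 0.09, and in 51.2% of all genes, with a median of 0.005. By role it was above 0 in 11 of 12 glycosidases, 7 of 8 glycosaminoglycan genes, 9 of 9 lipid genes and 6 of 6 proteases. Of the TFEB control genes it was above 0 in 1 of 4. Genes measured in the same livers are not independent, and the treated mice carry only 2 leading numbers, so these tallies are a description.

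The 6 members under 0.05 before adjustment were all on the higher side in treated WT mice. Nagpa ran from 367 to 459 normalized counts with vehicle (mean 404 ± 30.1) and from 469 to 519 with RvE1 (mean 496 ± 16.9), a log2 fold change of 0.30 (standard error 0.07, BH-adjusted p-value 0.772). Nagpa did not overlap between the groups, and how many of all genes did not overlap was not counted. DESeq2 on the recovered reads called it as the only member, beside 25 of all 13085 genes. The edgeR fit called 0 members and 1 gene. Hexa (0.42, SE 0.12), Arsa, the sulfatase of sulfatide (0.42, SE 0.13), Psap (0.22, SE 0.09), Neu1 (0.19, SE 0.09) and Ctsd (0.20, SE 0.09) had adjusted p-values from 0.772 to 0.811 and overlapped between groups. Lipa and Gm2a, lower with diet, had log2 fold changes of 0.17 (95% interval -0.10 to 0.45) and 0.00 (-0.27 to 0.28) with RvE1.

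The genes of TFEB control stayed within their spread in WT mice given RvE1. Tfeb had a log2 fold change of -0.005 (standard error 0.09, BH-adjusted p-value 0.997), Flcn of 0.00 (standard error 0.17, BH-adjusted p-value 0.999), Fnip1 of -0.09 (standard error 0.20, BH-adjusted p-value 0.984) and Fnip2 of -0.05 (standard error 0.17, BH-adjusted p-value 0.991). Fnip1 was split by the leading number of the mouse names within the treated group, with 2882 to 4004 in the 3 mice of number 30 and 1706 to 2101 in the 4 of number 7. Kupffer cell marker sums were 6010 to 9558 with vehicle and 5207 to 15427 with RvE1, and 0 of 10 markers were called.

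In KO mice given RvE1 no member was called, beside 0% of 14207 genes higher and 0% lower. At an unadjusted p under 0.05 limma gave 2 members (4.44%) and 1179 of all genes (8.30%). Both edgeR and DESeq2 called 0 members, beside 0 and 17 of all genes. Engase ran from 127 to 192 with vehicle and from 168 to 263 with RvE1 (log2 fold change 0.41, SE 0.14, adjusted p = 0.557), and Neu1 from 1123 to 1844 and from 1402 to 2328 (0.32, SE 0.14, adjusted p = 0.58). The log2 fold change was above 0 in 25 of the 45 members, with a median of 0.03, and in 48.5% of all genes, with a median of -0.008. Without the KO obese mice of number 10, Engase and Hexa passed the threshold, both higher, beside 329 of all 14207 genes. Lipa (0.08, 95% interval -0.16 to 0.33) and Gm2a (-0.03, -0.30 to 0.23) again differed by less than their error.

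Fnip2 ran from 1433 to 2221 in KO obese mice with vehicle, whereas the 7 mice given RvE1 gave 570.1, 710.0, 1098, 1334, 2037, 2118 and 2309 (log2 fold change -0.45, SE 0.28, adjusted p = 0.642). So 4 of the treated mice lay below the lowest vehicle mouse and 1 above the highest. Fnip1 differed by -0.36 (standard error 0.17, BH-adjusted p-value 0.598), Flcn by -0.14 (standard error 0.15, BH-adjusted p-value 0.801) and Tfeb by -0.01 (standard error 0.12, BH-adjusted p-value 0.984). Gpnmb was at 1.43 to 77.4 with RvE1 and 1.32 to 218 with vehicle (-0.27, SE 1.03, adjusted p = 0.954). The difference between the RvE1 effects of KO and WT mice was called in none of the 43 members, beside 0% of 13081 genes higher and 0% lower. At an unadjusted p under 0.05 limma gave 0 members and 313 of all genes (2.39%), and edgeR and DESeq2 called 0 members. Each RvE1 comparison uses the same vehicle mice as a comparison above.

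**Figure D5:**
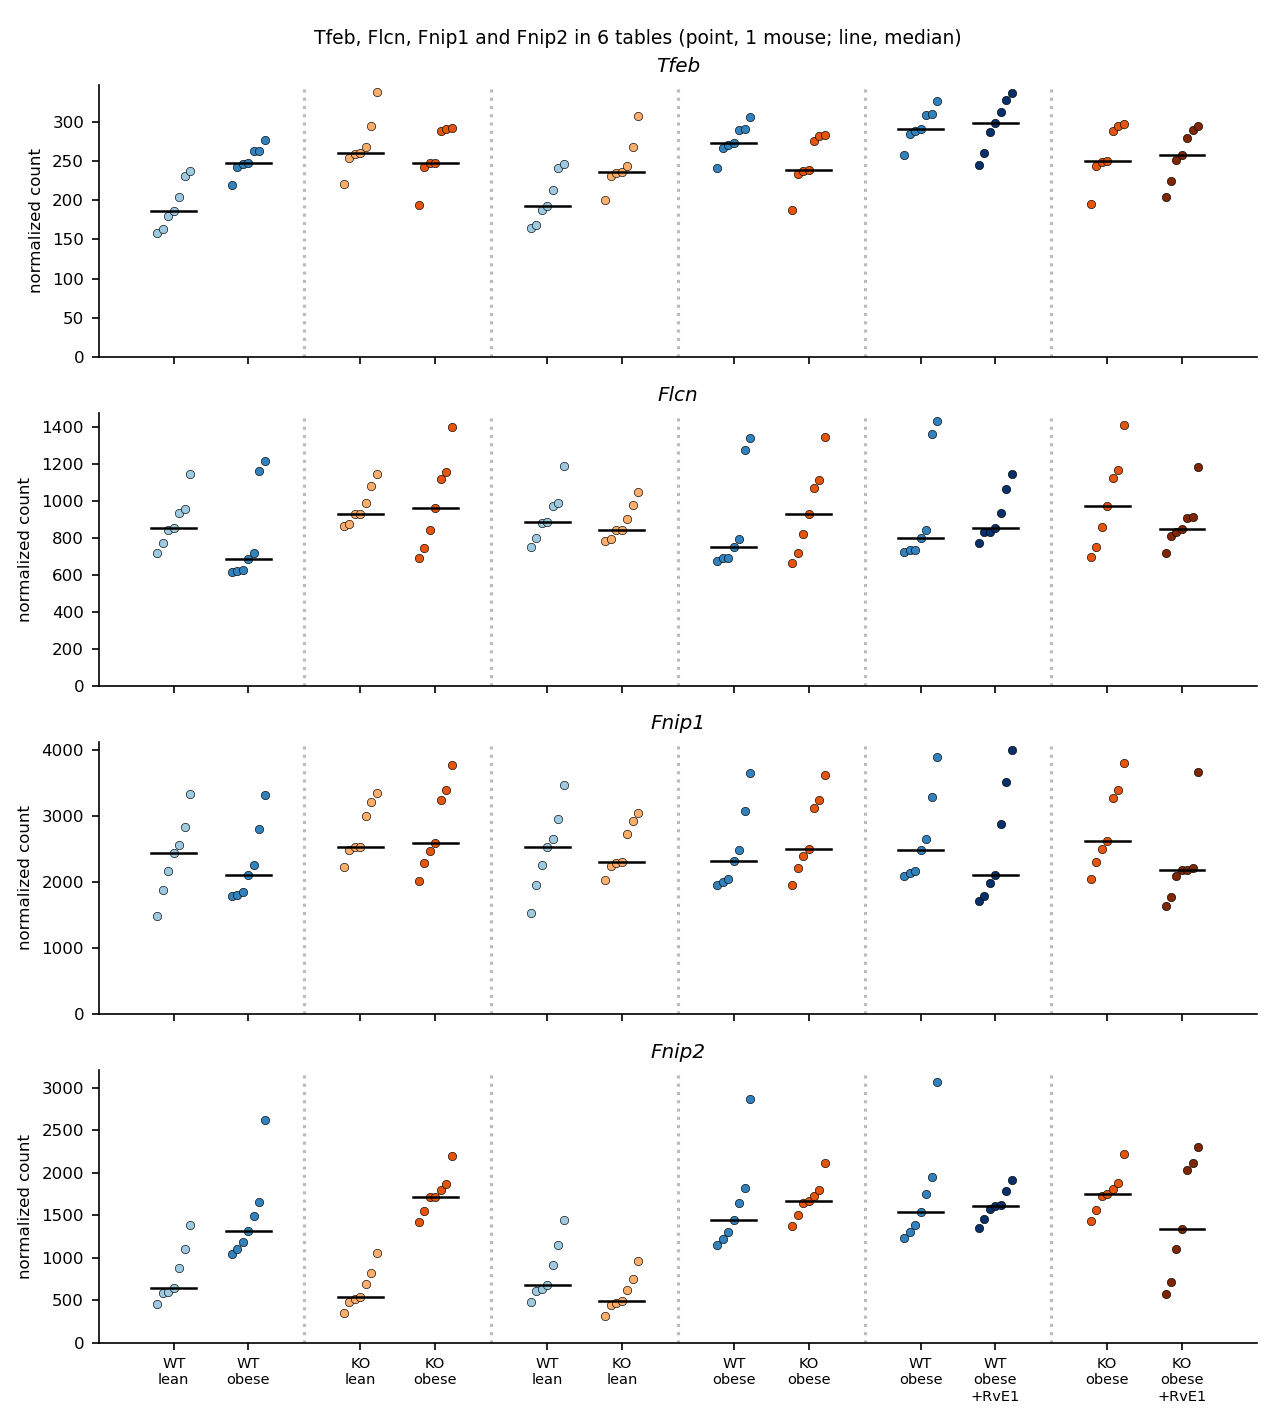
Normalized counts of Tfeb, Flcn, Fnip1 and Fnip2 in each mouse, for the 6 tables in pairs; points are mice ordered by value, lines are medians, and levels are comparable only within a pair. Fnip2 separates KO lean from KO obese mice without overlap, which was not counted over all genes, and the KO obese+RvE1 mice spread from 570.1 to 2309.

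Other lysosomal genes were counted from a list of 74, of which 72 were tested in each table. In WT obese against WT lean mice 3 were called higher and 2 lower, 4.17% and 2.78%, near the 3.65% and 2.61% of all genes, led by Ctso (0.43, SE 0.08, adjusted p = 0.00910), a cysteine protease, and Galc (-0.73, SE 0.16, adjusted p = 0.0185), the galactosylceramidase. In KO obese against KO lean mice 6 were higher and 9 lower, 8.33% and 12.5% beside 12.0% and 12.1% of all genes, led by the hyaluronidase Hyal2 (-0.73, SE 0.11, adjusted p = 0.00214) and the asparaginyl protease Lgmn (-0.56, SE 0.15, adjusted p = 0.0231). In KO lean against WT lean mice 10 were higher and 5 lower, 13.9% and 6.94% beside 8.00% and 8.30% of all genes, led by the proton pump subunit Atp6v0e (1.28, SE 0.24, adjusted p = 0.0302) and Lgmn (0.68, SE 0.13, adjusted p = 0.0308), beside the Kupffer cell marker sums given above. With the leading number as a random block only 3 of all 13031 genes were called in that comparison, in place of 2123, and 8, 15 and 32 were called without the mice of number 26, 9 and 21, so at most 3 of these 15 calls can hold with the block. In KO obese against WT obese mice and in the RvE1 comparisons of WT and KO mice limma called 0 of the 72, with 1, 4 and 3 at an unadjusted p under 0.05. Adjusted values were lowest at 1.00 (tied, with Cd68 and Gga1 first by unadjusted p), 0.772 (Laptm4b and Sort1), and 0.557 and 0.580 (Pla2g15 and Neu3).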

How the data were processed

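Liver RNA of 42 mice was sequenced from TruSeq Stranded libraries. The authors aligned reads with Bowtie2 to mm10, counted them per gene with featureCounts and deposited 6 tables of 14 libraries each, with normalized counts (signal: counts divided by DESeq2 size factors of that table). The sources used here name no versions, annotation or strand setting. The tables' own fold changes and p-values were not used. Division by 1 constant per library gave whole reads for 100% of values (tolerance 0.1).

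Here log2(normalized count + 1) was compared within each table with limma 3.58.1 (R 4.3.3), using all genes with a mean of at least 5 normalized counts, and called at a Benjamini-Hochberg adjusted p under 0.1. Fold changes are on the log2(value + 1) scale, which understates those of low genes. Interactions used the 28 mice concerned, each with the values of the table of its genotype. Intervals are 95%. Alternatives were other pseudocounts, filters, scalings and thresholds, edgeR 4.0.16 and DESeq2 1.42.0 on recovered reads, library weights, length and GC correction, the leading number of the mouse name as a random block (consensus correlation 0.0643 to 0.373), and leaving out mice or numbers. The scripts were tested on simulated data.

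Members and lists were chosen with earlier results of these data known. Called members are named, the 6 with the smallest adjusted p in full; Tfeb, Flcn, Fnip1, Fnip2 and Gpnmb are given throughout, and the 2 other lysosomal genes with the smallest adjusted p per comparison. Promoters are from RefSeq (GRCm38.p6) and gene models from GENCODE M21; Ctsb, Asah1, Hgsnat, Galns, Aga and Npc1 had no promoter entry. Every depth limit covers counting error only.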

Additional observations from a re-analysis of the deposited data

Results flagged for a closer look

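Each group of 7 mice was searched for a mouse far from the others, by the gap to the nearest mouse over the range of the group (Dixon's 95% limit). Of 86 groups 3 passed, and chance passes about 1 in 20 groups. Fnip1 was at 3671 normalized counts in KO obese+RvE1 mouse 23-2L, with the next at 2217 (ratio 0.621). Man2b1 was at 951 in KO lean mouse 20R, with the next at 721 (ratio 0.604, table of KO lean against WT lean). Npc2 was at 2908 in KO lean mouse 20L, with the next at 1877 (ratio 0.769, table of KO obese against KO lean). The lower Npc2 of KO obese mice was called also without mouse 20L.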

How the results depend on the processing

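Of 1644 alternative values of the named members, 1271 kept direction and side of the threshold, 269 lost the call, 8 gained one and 96 changed sign, all of the latter for values that were not called. The 9 members called in WT obese against WT lean mice were 3 with equal read totals, at an adjusted p under 0.05 and at a fold above 1.5, 2 with the leading number as a random replicate block, 4, 4, 2, 3 and 4 without the mice of number 21, 26, 27, 6 and 8, and 4 to 9 with 1 mouse left out. The 13 in KO obese against KO lean mice were 7 with the block, 4 at a fold above 1.5, 7 without number 10, 8 without number 31 and 11 to 14 with 1 mouse left out. The 6 in KO lean against WT lean mice were 3 with equal read totals, 0 with the block, at an adjusted p under 0.05 and at a fold above 1.5, 2 without number 14 or 8, 0 without number 21, 26 or 9, and 0 to 9 with 1 mouse left out. For RvE1, 1 member was called in WT mice by DESeq2 and 1 without number 6, and 2 in KO mice without number 10. Beside these, 25, 49 and 329 of all genes were called. The difference of diet effects had 3 by DESeq2, 7 with library weights and 2 without number 20 or 8, beside 925, 2537, 875 and 148 of all genes. It had 0 to 5 members with 1 mouse left out. The share of the 39 members with the motif in a promoter was 7.69% for TCACGTGA, 30.8% for CACGTG and 59.0% for GGGCGG, the last added after seeing the data. The calls over all genes shifted with these settings too. In the WT diet comparison they numbered 510 with equal read totals, 462 at an adjusted p under 0.05 and 532 at a fold above 1.5. Without number 21, 26, 27, 6 and 8 they numbered 490, 609, 314, 396 and 1259 there. In the KO diet comparison they numbered 1476 at a fold above 1.5, 1979 without number 10 and 832 without number 31. In the 2 diet comparisons and the lean genotype comparison the block took them from 878 to 279, 3422 to 1057 and 2123 to 3. With 1 mouse left out they ran from 524 to 1287, 2222 to 4504 and 572 to 3540. In the lean genotype comparison they numbered 2145 with equal read totals, 718 at an adjusted p under 0.05 and 866 at a fold above 1.5. There they numbered 1349 and 1935 without number 14 and 8, and 32, 8 and 15 without number 21, 26 and 9. The cause of these shifts was not tested. No paired analysis was possible because groups that were compared share fewer than 2 leading numbers: 1 number, 23, is found in KO obese and KO obese+RvE1 mice.

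The log2 fold changes with the other sign were these. In WT obese vs WT lean, Gpnmb was -0.018 (pseudocount 0.5), -0.22 (DESeq2), -0.091 (without number 26), -0.61 (without number 6) and -0.42 to 0.49 with 1 mouse left out, Flcn was 0.0045 (without number 6), Fnip1 was 0.072 (without number 21), 0.082 (without number 6) and -0.17 to 0.025 with 1 mouse left out. In KO obese vs KO lean, Gpnmb was -0.17 (without number 10), Tfeb was 0.070 (equal read totals), 0.020 (without number 20), Flcn was 0.14 (equal read totals), 0.024 (edgeR), 0.019 (DESeq2), 0.029 (random block), 0.015 (length and GC), 0.25 (without number 10), 0.052 (without number 20) and -0.10 to 0.068 with 1 mouse left out, Fnip1 was -0.0060 (weights), -0.034 (length and GC), -0.074 (without number 14), -0.095 (without number 31), -0.031 (without number 9) and -0.062 to 0.090 with 1 mouse left out. In KO lean vs WT lean, Flcn was -0.10 to 0.0082 with 1 mouse left out, Fnip1 was -0.070 (equal read totals), -0.12 (weights), -0.0081 (length and GC), -0.12 (without number 20), -0.14 (without number 8) and -0.062 to 0.13 with 1 mouse left out. In KO obese vs WT obese, Gpnmb was -0.062 (without number 10), Flcn was -0.014 (weights), -0.0013 (without number 31), -0.068 (without number 6), Fnip1 was -0.020 (without number 6), Fnip2 was -0.020 (without number 31), -0.081 (without number 6). In WT obese+RvE1 vs WT obese, Tfeb was 0.014 (weights), 0.027 (without number 27), 0.055 (without number 30) and -0.037 to 0.038 with 1 mouse left out, Flcn was -0.0070 (TMM scaling), -0.0017 (equal read totals), -0.054 (edgeR), -0.050 (DESeq2), -0.039 (random block), -0.040 (weights), -0.027 (length and GC), -0.15 (without number 30), -0.19 (without number 6) and -0.055 to 0.11 with 1 mouse left out, Fnip1 was 0.40 (without number 7) and -0.21 to 0.0042 with 1 mouse left out, Fnip2 was 0.031 (weights) and -0.13 to 0.093 with 1 mouse left out. In KO obese+RvE1 vs KO obese, Gpnmb was 1.39 (without number 10), 0.25 (without number 15) and -0.73 to 0.40 with 1 mouse left out, Tfeb was 0.061 (equal read totals), 0.089 (weights), 0.080 (without number 23), 0.058 (without number 31) and -0.079 to 0.040 with 1 mouse left out. In WT lean mice Gpnmb and Cd63 averaged 3.03 and 6.13 normalized counts, where counting error limits them.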
